A study of Mus musculus with 8 samples.

Results

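The markers described here were 8 genes of the gut endoderm: Sox17, Hnf4a, Hhex, Nkx2-1, Trh, Pyy, Nepn and Cldn6. They were found by matching the RefSeq transcript in each probe's record to these symbols, which gave 9 probes on 18 spots of an Agilent array that held 55681 non-control probes. Each gene had 1 probe except Sox17, which had 2 probes, and the Nkx2-1 probe was printed on 10 spots. RNA was measured in 8 mouse embryos at embryonic day 8.5 (E8.5), with 1 one-colour array for each. The 4 embryos written here as WT father 1 to 4 were sired by Eed wt/wt males, and HET father 1 to 4 were sired by Eed hypo/wt males. The hypo allele is Eedl7Rn5-1989SB, a hypomorphic point mutation of Eed, which encodes a core subunit of Polycomb Repressive Complex 2 (PRC2). All mothers were wild-type, all 8 embryos were described as wild-type and matched for stage, and the background was C57bl6/129, in a colony that carried an Oct4GFP transgene. The comparison therefore asked whether the father's genotype, rather than that of the embryo, was accompanied by a difference in gene expression.

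The gut endoderm is the inner epithelial layer of the embryo, formed by cells that leave the primitive streak and intercalate with cells of the visceral endoderm. At E8.5 it is folding into a tube, and regional transcription factors begin to mark the domains from which the thyroid, lung, liver, pancreas and intestine will bud. Several of its markers are shared with other cells: Hnf4a is made in the visceral endoderm of the yolk sac, Sox17 and Hhex in endothelial or blood progenitors, and Nkx2-1 in the ventral forebrain.

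Each group held 2 female embryos (WT father 1 and 3, HET father 2 and 4) and 2 male embryos. Xist was well above background in 4 of 4 females and 0 of 4 males, and Ddx3y and Eif2s3y in 4 of 4 males and 0 of 4 females. The probes well above background numbered 32158 to 39530 per array in the WT father group and 29203 to 38878 in the HET father group. The number of arrays, 4 a group, limits the precision. The arrays of each group shared 1 slide and no slide held both, and the slide and the genotype of the sire cannot be told apart. Of the WT father embryos, 3 of 4 shared the first part of their embryo code, and in the 4 HET father embryos it differed. The labels do not say which sire an embryo came from. The breeding plan lists fewer males of each genotype than there were embryos in a group. A legend of this comparison gives n = 4 for each genotype, which may count males or embryos. Embryos of a group may therefore have shared fathers. The p-values below treat embryos as independent, although the genotype tested is that of the father, and they may be too small. The labels name the tissue as embryo, and all 15 yolk sac endoderm markers measured, such as Afp, Ttr and Rbp4, were well above background in every embryo, and so were all 8 primitive erythroid markers, such as Hbb-bh1. Of 7 early endoderm and streak markers, 6 were well above background in every embryo. The other, Mixl1, a marker of the primitive streak, was not well above background in any embryo.

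For none of the 8 markers did a difference between embryos of HET and WT fathers pass the test. With limma across 33093 tested probes, 0 of the 9 marker probes passed an adjusted p under 0.01 with a change of at least 2-fold, and their adjusted p was 1 in each case. The same rule called 0 probes in all (0%), and 1440 probes (4.35%) had an unadjusted p under 0.05, none of them a marker. Beside this fit, an exact permutation test over the 70 assignments of 4 of the 8 embryos, two-sided and with 0.0286 as the smallest p it allows, is given for each probe. The values of the 2 groups overlapped for every marker probe, where 3.15% of all tested probes did not overlap. The estimated differences ran from −0.05 to 0.21 on the log2 scale, and each of the 9 intervals at 95% lay inside a 2-fold change in either direction. In RNA of entire embryos, fewer cells of a type and less RNA per cell cannot be told apart.

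Values below are log2 processed intensities minus the 75th percentile of the same array, so that 0 is the 75th percentile of that array. A level is read only between embryos on the same probe, since probes differ in brightness for reasons of design.

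**Figure D1:**
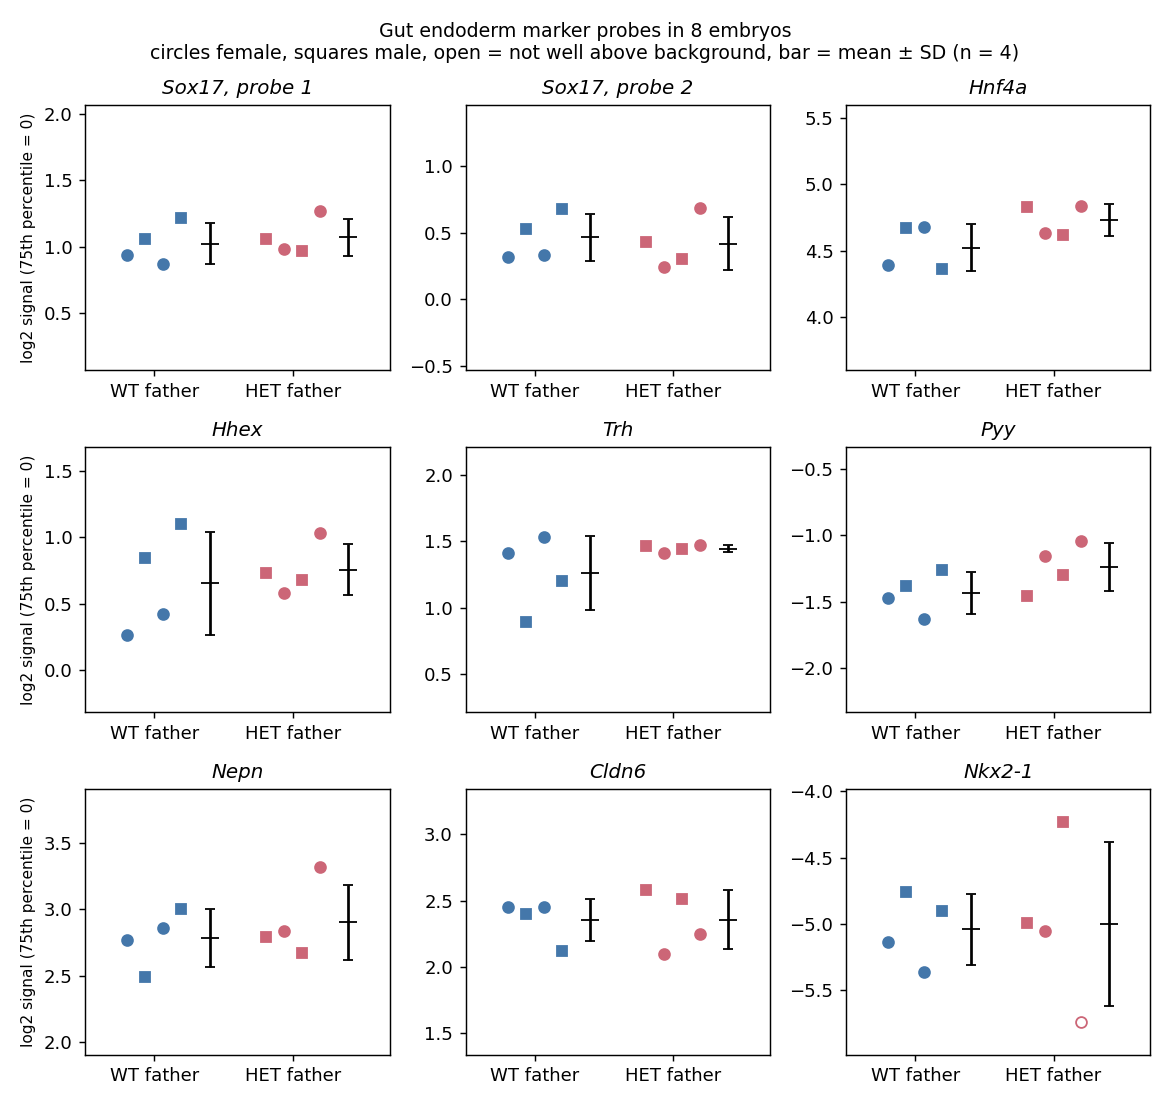
Log2 signal of the 9 marker probes in the 8 embryos, by father's genotype, with 0 at the 75th percentile of each array. Each panel spans 2 log2 units, circles are females, squares are males, and bars are the mean and SD of 4 embryos. Values of the groups overlap in every panel, the Trh values of the HET father group lie close together (SD 0.03 against 0.28), and the open Nkx2-1 symbol is the 1 value that was not well above background.

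Of the 4 transcription factors, Sox17 is an HMG-box protein required for formation of the definitive gut endoderm. Its brighter probe (A_55_P2157023, NM_011441) read 0.94, 1.06, 0.87 and 1.22 in WT father 1 to 4, and 1.06, 0.98, 0.97 and 1.27 in HET father 1 to 4. The highest values were those of WT father 4 and HET father 4, and the ranges nearly coincided. The difference, HET minus WT father, was 0.05 (SE 0.11, 95% interval −0.20 to 0.30, exact permutation p = 0.6). The second probe of the same transcript (A_55_P2094706) read 0.32, 0.53, 0.33 and 0.68 in the WT father group and 0.24 to 0.69 in the HET father group. It ranked WT father 4 and HET father 4 highest as well, and its difference was −0.05 (SE 0.13, 95% interval −0.35 to 0.26, exact permutation p = 0.714). The brighter probe exceeded the other by 0.61 ± 0.07 (SD, n = 8 embryos) on the log2 scale, so that the pair followed each other closely from embryo to embryo while the sign of their small group differences was opposite.

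Hnf4a encodes a nuclear receptor of the visceral endoderm and, later, of the liver and intestine. Its probe (A_55_P1959633, NM_008261) read 4.39, 4.67, 4.68 and 4.36 in the WT father group and 4.83, 4.63, 4.62 and 4.84 in the HET father group. HET father 1 and 4 were above all WT father embryos, whereas HET father 2 and 3 were below WT father 2 and 3. The difference was 0.21 (SE 0.11, 95% interval −0.05 to 0.46, exact permutation p = 0.171), the largest estimate of the 9 probes. Of the markers of yolk sac endoderm, where this gene is also made, 9 of 15 had a negative and 6 a positive estimate, with 0 called. Their median difference was −0.04. The log2 of their summed signal, in which the brightest probes weigh most, was 9.40 to 9.86 in the WT father and 9.69 to 9.72 in the HET father group. Afp, Ttr and Rbp4, the 3 brightest, differed by −0.02 to 0.03. WT father 4, with the lowest Hnf4a at this scaling, was also the lowest for these markers, at a mean deviation of −0.31 from the mean of the 8 embryos. The mean deviations were 0.17, 0.13 and 0.17 in WT father 1 to 3, and 0.01, −0.04, −0.10 and −0.02 in HET father 1 to 4. WT father 1 was thus nearly as low for Hnf4a (4.39) but not low for these markers. The part of yolk sac tissue in the Hnf4a values was not tested.

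Hhex is a homeobox gene of the anterior endoderm that is needed for the liver and thyroid buds. Its probe (A_52_P528600, NM_008245) read 0.26, 0.84, 0.42 and 1.1 in the WT father group and 0.73, 0.58, 0.68 and 1.03 in the HET father group. The lowest and the highest embryo were both of WT fathers, 1.8-fold apart, and enclosed the whole of the other group. The lead of WT father 4 over HET father 4 was 0.07, and HET father 4 was the highest with normexp and under the median shift, where HET father 3 was the lowest. The difference was 0.10 (SE 0.20, 95% interval −0.37 to 0.57, exact permutation p = 0.657). Among markers that were well above background on all arrays, Hhex varied most between embryos (SD 0.29, n = 8). The endothelium, a second site of its expression, had 12 of 12 markers well above background in every embryo. The log2 of their summed signal was 5.13 to 5.40 in the WT father and 5.33 to 5.54 in the HET father group. Of these markers, 11 of 12 were higher in the HET father group, with a median of 0.12 and 0 called, where 49.9% of all tested probes were higher. A median shift moves father differences by about −0.10, more than the 0.04 of Kdr, so this count depends on the scaling. Tal1, a regulator of blood and endothelial progenitors named here after its values were seen, was the 1 gene of the list without overlap, at 2.11 ± 0.21 and 2.41 ± 0.04 (SD, n = 4), a difference of 0.30 (exact permutation p = 0.0286, limma adjusted p = 1). Groups of 4 without overlap always give this exact p, so it adds nothing to the lack of overlap. Of all tested probes, 3.15% did not overlap. Kdr, Lyl1 and Flt1, the 3 brightest, differed by 0.04 to 0.19. The part of endothelial RNA in the Hhex and Sox17 values was not tested.

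The genes whose pattern over the 8 embryos was most like that of Hhex, of 3881 candidates that varied at least 80% as much, were Spin2c, Slc38a4 and Ccr7. Their deviations from the 8-embryo mean differed from those of Hhex by a root mean square of 0.11, 0.11 and 0.12 on the log2 scale. All 3 had their lowest value in WT father 1, as Hhex did. WT father 4 was the highest for Slc38a4 and Ccr7, and was 0.01 below HET father 4 for Spin2c. This likeness is a description over 8 arrays that share their scaling.

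Nkx2-1 is a homeobox gene of the thyroid and lung primordia. Its probe (A_52_P216427, NM_009385) was dim, with processed intensities of 21.8 to 52.3, and was well above background on 7 of 8 arrays. It read −5.14, −4.76, −5.36 and −4.90 in the WT father group and −4.99, −5.05, −4.23 and −5.74 in the HET father group. HET father 3 read highest and HET father 4, which was not well above background, read lowest, but HET father 3 was the lowest with normexp and with quantile normalization. The difference was 0.04 (SE 0.31, 95% interval −0.68 to 0.76, exact permutation p = 0.886), the widest interval of the markers. The 9 or 10 usable spots of an array had an SD of 0.26 to 0.42. In HET father 4, the embryo that was not well above background, 0 of 9 spots were, and in HET father 3, 8 of 10 were. Both arrays differed from the others in a property of the array: the median local background of HET father 4 was 133 against 30 to 32 on the rest of its slide, and the median probe of HET father 3 lay 3.05 below the 75th percentile on the log2 scale, where the other arrays had 3.64 to 4.36. The part of these properties in the Nkx2-1 values was not tested.

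**Figure D2:**
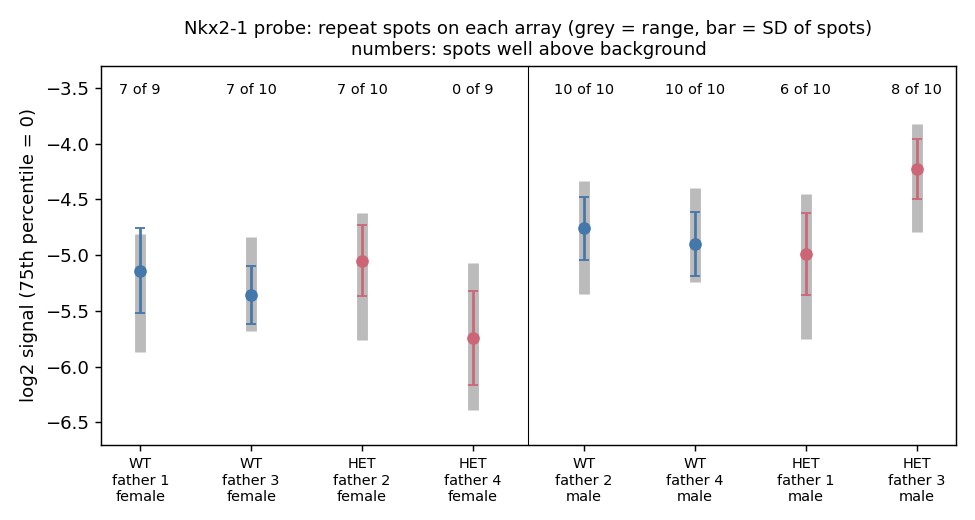
Log2 signal of the repeat spots of the Nkx2-1 probe on each array, females on the left and males on the right, with 0 at the 75th percentile of the array. Points are the mean of 9 or 10 spots, grey bars their range and capped bars their SD, in blue for WT and red for HET fathers, and the numbers count spots well above background. The 4 male means, from −4.99 to −4.23, lie above the 4 female means, from −5.74 to −5.05, but the spot ranges of neighbouring arrays overlap.

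Nkx2-1 was the 1 marker of 8 whose values did not overlap between the sexes, as was the case for 2.58% of all tested probes. Males read −4.76, −4.90, −4.99 and −4.23, and females −5.14, −5.36, −5.05 and −5.74. The gap between the sexes, from −5.05 to −4.99, was smaller than the SD of the spots on any array. In a limma fit with father and sex, the difference, male minus female, was 0.61 (SE 0.23, adjusted p = 1). It was the 1 marker of 8 with an unadjusted p under 0.05, beside 3.27% of all tested probes. An exact permutation of sex within the father groups gave p = 0.0556, the smallest two-sided value that the 36 assignments allow. A lack of overlap between the sexes always gives this value. With quantile normalization the difference was 0.28 (exact permutation p = 0.556), and HET father 3 then had the lowest value of the 8 embryos in place of the highest. No marker was called between the sexes, against 11 of all tested probes (0.0332%), and the other 7 differed by −0.21 to 0.27. Markers of the ventral forebrain, where Nkx2-1 is also made, had 7 of 7 well above background in the WT father group and 6 or 7 in the HET father group. The log2 of their summed signal was 2.94 to 3.27 and 2.99 to 3.30, respectively, and their median father difference was 0.12.

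Trh and Pyy encode secreted peptides. Trh is the precursor of thyrotropin-releasing hormone. Its probe (A_55_P2071349, NM_009426) read 1.41, 0.89, 1.53 and 1.20 in the WT father group and 1.46, 1.41, 1.44 and 1.47 in the HET father group. The HET father embryos spanned 0.07 on the log2 scale and lay within the range of the WT father embryos. The difference was 0.19 (SE 0.14, 95% interval −0.14 to 0.51, exact permutation p = 0.343), and it was 0.06 without WT father 2 and 0.08 with normexp background correction. The spread differed more than the mean: the SD was 0.28 in the WT father and 0.03 in the HET father group (n = 4 each), with WT father 2 and WT father 4, both male, as the low values. This difference in spread was noticed in the values and was not tested.

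Pyy encodes peptide YY, a hormone of enteroendocrine cells. Its probe (A_52_P366462, NM_145435) read −1.47, −1.38, −1.63 and −1.26 in the WT father group and −1.46, −1.16, −1.30 and −1.04 in the HET father group. HET father 2 and 4, both female, were above all WT father embryos, and HET father 1 was below 2 of them. The difference was 0.20 (SE 0.12, 95% interval −0.08 to 0.48, exact permutation p = 0.171).

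Nepn and Cldn6 encode an extracellular and a junctional protein. Nepn encodes nephrocan, a secreted leucine-rich repeat protein that antagonises TGF-beta signalling. Its probe (A_51_P309530, NM_025684) read 2.77, 2.49, 2.86 and 3.0 in the WT father group and 2.79, 2.84, 2.67 and 3.32 in the HET father group. HET father 4 stood above the other 7 embryos, which overlapped between the groups. The difference was 0.12 (SE 0.17, 95% interval −0.27 to 0.52, exact permutation p = 0.571), and it was −0.02 without HET father 4.

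Cldn6 encodes a claudin of the tight junctions of embryonic epithelia. Its probe (A_51_P423743, NM_018777) read 2.45, 2.40, 2.45 and 2.12 in the WT father group and 2.58, 2.10, 2.51 and 2.25 in the HET father group. Within the WT father group 3 embryos lay close together and WT father 4 was lower, while in the HET father group the 2 males were above the 2 females. The means were equal at 2.36, with a difference of 0.00 (SE 0.13, 95% interval −0.31 to 0.31, exact permutation p = 1).

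**Figure D3:**
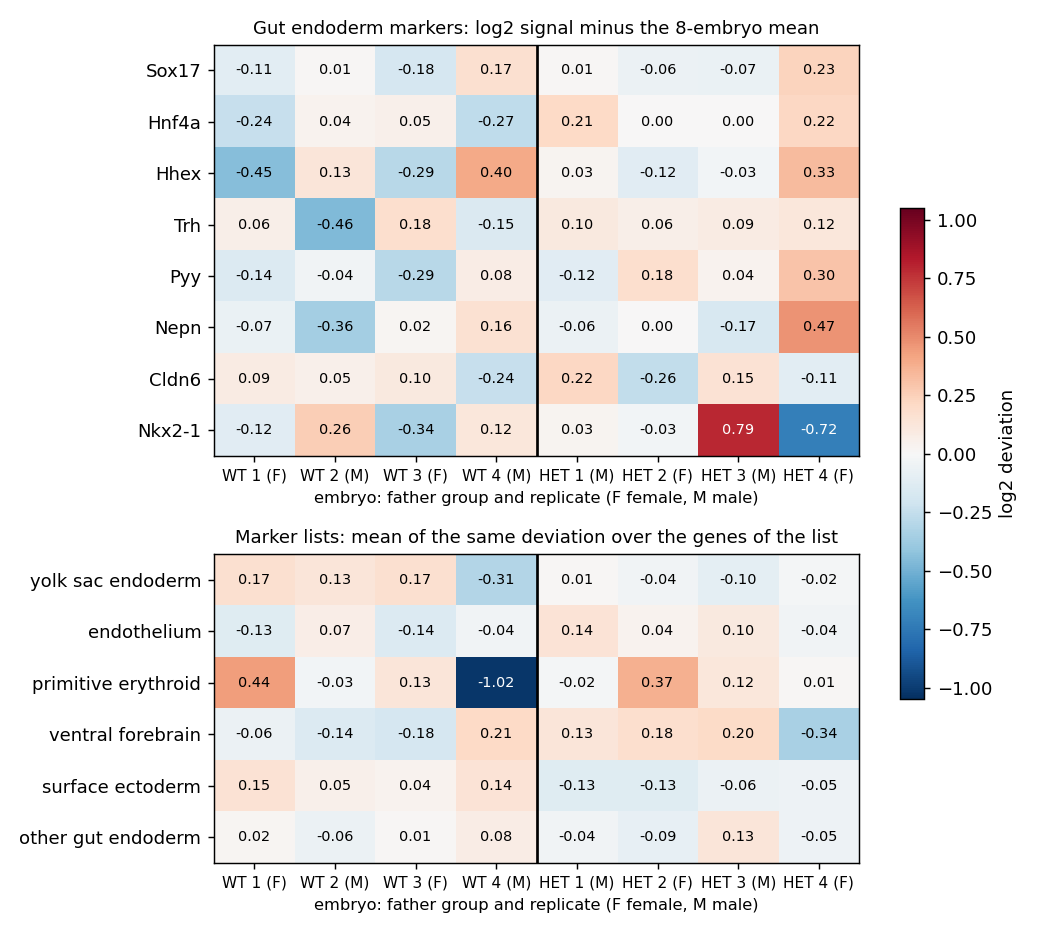
Log2 deviation of each embryo from the mean of the 8 embryos, for the 8 markers (top, brightest probe) and as the mean over 6 marker lists (bottom). WT and HET name the father's genotype, F and M the embryo's sex, and red is higher and blue lower. HET 4 is positive for 6 of 8 markers, including Nepn at 0.47, and WT 4 is at −1.02 for the primitive erythroid list.

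HET father 4 had the highest value of the 8 embryos for Sox17 on both probes, Hnf4a, Pyy and Nepn, and the lowest for Nkx2-1. Its lead over the next embryo was 0.01 for Hnf4a, 0.05 and 0.01 for the 2 Sox17 probes, 0.13 for Pyy and 0.31 for Nepn. It remained the highest for Pyy, Nepn and the brighter Sox17 probe with quantile normalization, normexp and the median shift. The second Sox17 probe was highest in WT father 4 with normexp, and Hnf4a was highest in HET father 1 under all 3 of these scalings. Under none of them was HET father 4 the lowest for Nkx2-1. The local background of this array was raised, and its part in these values was not tested. WT father 4 read lowest for Hnf4a, except under the median shift, where HET father 3 did. The same embryo had low primitive erythroid markers, at a mean deviation of −1.02.

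The SD of the marker probes over the 8 embryos ran from 0.14 for the brighter Sox17 probe to 0.44 for Nkx2-1. The median over all tested probes was 0.216, and the markers lay between percentiles 29.9 and 77.3 of that distribution. The brightest probe was higher in the HET father group for 8 of 8 markers, as for 49.9% of all tested probes, but with a median shift in place of the 75th percentile it was higher for 4 of 8, and with quantile normalization for 6 of 8. The median difference of the markers was 0.11, beside 0.00 for all tested probes. Under the median shift it was 0.01 beside −0.10.

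**Figure D4:**
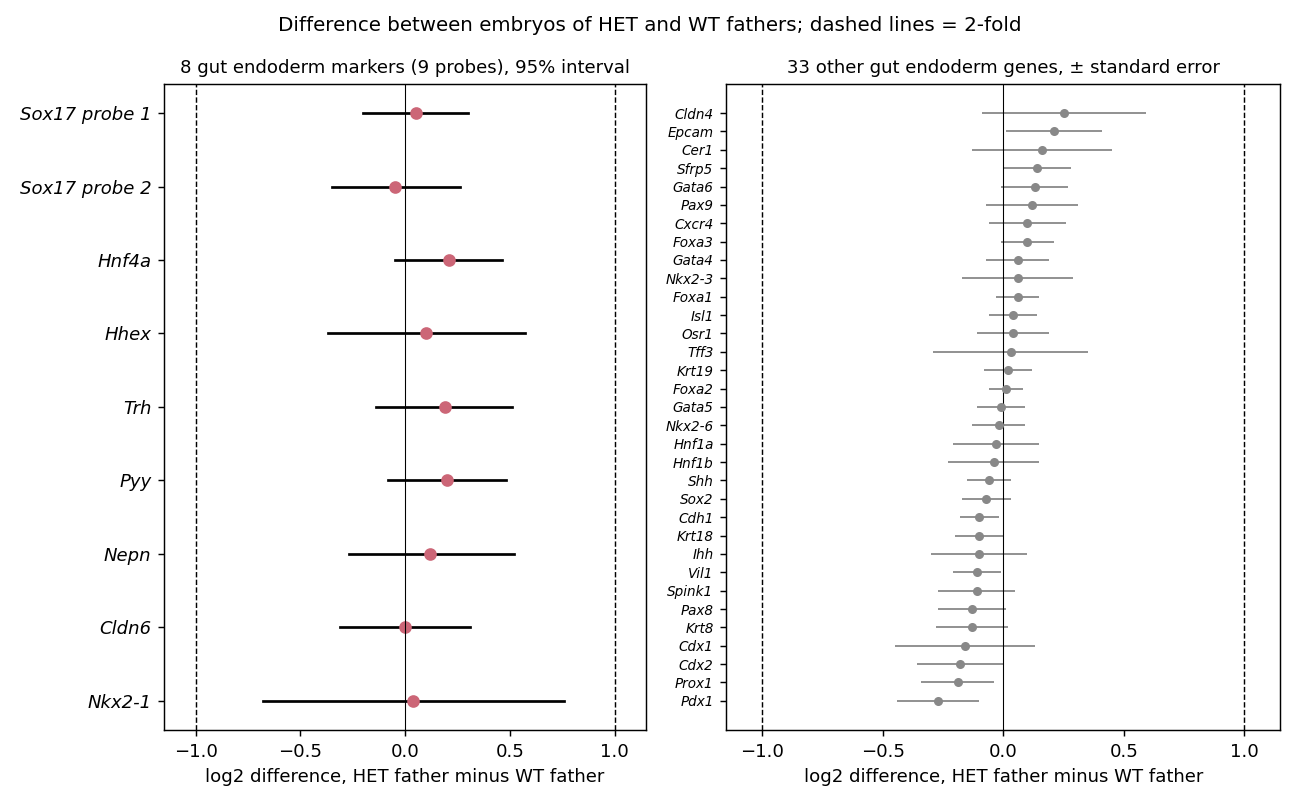
Log2 difference between embryos of HET and WT fathers for the 9 marker probes with 95% intervals (left) and for 33 other gut endoderm genes with standard errors (right), with dashed lines at 2-fold. The marker estimates lie between −0.05 and 0.21 and those of the other genes between −0.27 and 0.25, on both sides of 0.

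Nor was any other gene of the gut endoderm called. Of 36 listed genes, 34 were found on the array and 33 were tested, 0 were called, 16 were higher and 17 were lower in the HET father group, 0 had an unadjusted p under 0.05, and the adjusted p was 1 throughout. Their median difference was −0.01, with a range of −0.27 to 0.25. The genes with the smallest p were Pdx1, Prox1, Cdh1 and Vil1. Pdx1, a regulator of the pancreas and duodenum, read −4.65 ± 0.22 in the WT father and −4.93 ± 0.30 in the HET father group (SD, n = 4), was well above background on 6 of 8 arrays, and differed by −0.27 (exact permutation p = 0.2). Prox1, a regulator of liver and lymphatic cells, was as dim, at −4.69 ± 0.21 and −4.88 ± 0.22 (exact permutation p = 0.314). Cdh1, the adhesion protein of epithelia, read 2.28 ± 0.11 and 2.18 ± 0.09 (exact permutation p = 0.2), and Vil1, an actin bundler of microvilli, 3.84 ± 0.17 and 3.73 ± 0.10 (exact permutation p = 0.343). Onecut1, a regulator of the liver and pancreas buds, was not well above background in any embryo. Named for their role and outside the naming rule, Foxa1, Foxa2 and Foxa3, the pioneer factors of the endoderm, differed by 0.06, 0.01 and 0.10, and Cdx1 and Cdx2, which mark its posterior part, by −0.16 and −0.18.

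Markers of other cell types were also read for the father contrast, and 0 of any list were called. All 8 primitive erythroid markers were higher in the HET father group, with a median of 0.19, where 49.9% of all tested probes were higher. The smallest of their differences was 0.11, where a median shift moves father differences by about −0.10. The mean deviations of the erythroid markers from the 8-embryo mean were 0.44, −0.03, 0.13 and −1.02 in WT father 1 to 4. In HET father 1 to 4 they were −0.02, 0.37, 0.12 and 0.01, so that WT father 4 stood far below all the others. The log2 of the summed signal of these markers was 9.02 to 10.27 in the WT father group, with WT father 4 the lowest, and 9.72 to 10.05 in the HET father group. Median differences were 0.03 over 9 parietal endoderm, −0.01 over 6 early endoderm and streak, −0.04 over 8 surface ectoderm and −0.07 over 7 decidua and trophoblast markers. The last 2 lists each held 1 gene with an unadjusted p under 0.05 and no overlap between the groups, named here after their values were seen. Of all tested probes, 4.35% had such a p and 3.15% did not overlap. Groups of 4 without overlap always give the smallest exact permutation p, 0.0286, so that p adds nothing to the lack of overlap. Dmkn, a gene of the epidermis, read −1.49, −1.12, −2.06 and −1.48 in the WT father group and −3.50, −3.05, −3.49 and −2.26 in the HET father group, a difference of −1.54 (SE 0.32, exact permutation p = 0.0286, limma adjusted p = 1). Prl8a2, a prolactin family gene of the decidua, read 1.99, 2.92, 1.56 and 2.32 in the WT father group and 0.72, 0.30, −2.61 and 0.54 in the HET father group, a difference of −2.46 (SE 0.75, exact permutation p = 0.0286, limma adjusted p = 1). Both were lower in all 4 HET father embryos, and Prl8a2 was lowest in HET father 3. The part of these cell types in the gut endoderm values was not tested.

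The father's genotype was also compared within each sex, with 2 embryos in each of the 4 classes. For Hhex, HET father females (0.80) were above WT father females (0.34), and HET father males (0.70) were below WT father males (0.97), with no overlap in either sex. For Cldn6 the directions were turned: HET father females (2.17) were below WT father females (2.45), and HET father males (2.54) were above WT father males (2.26). Of all tested probes, 3.15% showed opposite directions without overlap. The interaction term of a limma fit, the male minus the female difference, was −0.73 (SE 0.27) for Hhex, 0.56 (SE 0.19) for Cldn6 and −0.51 (SE 0.17) for Pyy. These 3 of 8 markers had an unadjusted p under 0.05, as did 2.22% of all tested probes. The adjusted p was 0.996 for each, and 0 probes were called (0%). Scaling by the array median moved the term of every marker alike, by −0.75, to −1.48 for Hhex, −1.26 for Pyy and −0.19 for Cldn6. The size of these terms thus depended on this scaling, and for Cldn6 the sign did too. With quantile normalization the terms were −0.71, −0.58 and 0.59 in the same order, and with normexp −0.66, −0.54 and 0.59. The median probe of the array of HET father 3, a male, was raised, and without HET father 3 the terms were −0.71 for Hhex and 0.60 for Cldn6 (adjusted p = 1 for both).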

How the data were processed

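Gene expression was measured in 8 E8.5 embryos on SurePrint G3 Mouse 8x60K arrays (Agilent), 1 for each. Spots had been quantified by the authors with Feature Extraction software (version 11.0.1.1). The deposited intensity values used here are its processed signals, from which background had been subtracted and which carried no scaling across arrays. A value table of the whole series, with deposited intensities of the same arrays, had 0 unused columns and was an alternative source. The array's design is on mm9. The published methods name neither the percentile used for scaling nor a test.

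Control and outlier spots were removed, repeat spots were averaged, and the 75th percentile of each array was subtracted on the log2 scale. Probes entered the test where at least 4 of 8 arrays were well above background and the mean exceeded the lowest 20%. The test was limma 3.58.1 (R 4.3.3, data.table version 1.17.8), a call required at least 2-fold and an adjusted p under 0.01 (Benjamini-Hochberg over all tested probes), and the scripts were tested on simulated data. The father contrast had the father group alone, the sex contrast both factors, and the interaction both with their product. Exact permutation tests over embryos were added for single probes after the values had been seen. The brightest tested probe stood for a gene in lists. Figures used matplotlib 3.10.9 with numpy 2.4.6, on Python 3.11.15 with pandas 2.3.3. Names came from RefSeq accessions through a table of GRCm38.p6, for 27235 of 28685 probes, and no coordinates are given because the builds differ.

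The markers and lists were chosen with earlier results of these data known. Named beside the 8 markers are the 4 other gut endoderm genes with the smallest p, the 3 brightest genes of each list of another cell type (printed for yolk sac endoderm and endothelium, and for the other lists not reported here), and the 3 genes most like the most variable of the markers that were well above background on all arrays. The lists covered other gut endoderm, early endoderm and streak, yolk sac endoderm, parietal endoderm, endothelium, primitive erythroid cells, ventral forebrain, surface ectoderm, and decidua and trophoblast. Alternatives changed the background correction (normexp, offset 50), scaling, source table, filter, flags, covariates, blocks, moderation, array weights and probe summary, or left out embryos.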

Additional observations from a re-analysis of the deposited data

Results flagged for a closer look

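In 40 groups of 4 embryos, each a marker, a list or an array property in 1 group, 5 had a lowest or highest embryo set apart from the nearest other by more than 0.829 of the group's range, where chance gives about 1 in 20, or 2. WT father 4 was apart for Cldn6 (0.845 of the range, low) and for the yolk sac endoderm markers (0.906, low). HET father 4 was apart for the ventral forebrain markers (0.88, low) and for the median local background of its array (0.981, high). HET father 3 was apart for the median of its array relative to the 75th percentile (0.839, high).

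The effect of the father's genotype on Hhex and Cldn6 had opposite directions in males and females, without overlap in either sex. The interaction terms were −0.73 and 0.56 on the log2 scale, with a limma adjusted p of 0.996 for both, and 3.15% of all tested probes had such a pattern.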

How the results depend on the processing

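No marker was called for father, sex or their interaction under any alternative run, and 0 of the other gut endoderm genes were called for father. The arrays with raised medians, WT father 1 and HET father 3, were left out together (the pair) as a setting chosen after seeing the data. Among all probes, the father contrast called 0 to 1 without 1 embryo (Prim2 without WT father 1, Med8 without HET father 4), 1 without the pair (Prim2), and 1440 at an unadjusted p under 0.05. That last count was 971 to 3099 without 1 embryo (3099 without HET father 3), 2340 without the pair, 3043 with array weights, 2625 with normexp, 5333 with no filter, 874 with the replicate block, 685 with a random block for embryo code and 478 under the median shift. The interaction called 4 under the median shift. The sex contrast called 11 probes, but 0 where all 8 arrays had to be above background, 5 with no filter, 0 with the replicate block, 7 without the pair, and 4 to 9 without 1 embryo. The filter for all 8 arrays removes probes such as those of Xist and Ddx3y, above background only in females or only in males, before the test. The signals of whole arrays correlated at 0.958 to 0.993 (28 pairs), so the correlations that follow are not of these signals. Same-numbered embryos of the groups correlated at −0.55, −0.05, −0.59 and −0.15, and differently numbered ones at −0.43 to 0.66, −0.52 to 0.49, 0.20 to 0.37 and −0.17 to 0.28. The labels do not say whether their replicate numbers pair the embryos, and these correlations cannot settle it. With the replicate numbers as a block the father difference of Hnf4a was 0.21 and the sex difference of Nkx2-1 was 0.61, and no marker was called. The interaction could not be fitted with the block. The median difference of the other gut endoderm list, −0.011, was 0.006 with normexp, −0.113 under the median shift, 0.011 above background on all 8 arrays, and −0.030 to 0.012 without 1 embryo.

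Estimates that changed sign follow. The median shift moved all 8 markers alike, by −0.10 for father, −0.15 for sex and −0.75 for the interaction, so its sign changes follow from the scaling and carry nothing on single genes. For the other settings the cause was not tested. For father, Cldn6 was −0.101 under the median shift, −0.004 with quantile normalization, −0.018 with a random block for embryo code and without the pair, and −0.091 with array weights. Nkx2-1 was −0.037 with normexp, −0.063 under the median shift, −0.056 with quantile normalization, −0.163 with array weights and −0.253 without the pair. Hhex was −0.001 under the median shift and −0.004 without the pair, and Sox17 was −0.051 under the median shift. Without 1 embryo, the father difference ran from −0.077 to 0.087 for Cldn6, −0.030 to 0.252 for Hhex, −0.016 to 0.199 for Nepn, −0.219 to 0.287 for Nkx2-1 and −0.016 to 0.118 for Sox17. For sex, the median shift gave −0.057 for Cldn6 and −0.085 for Sox17, Hnf4a was 0.003 with normexp and 0.001 with quantile normalization, and ranges without 1 embryo were −0.074 to 0.052 for Hnf4a, −0.106 to 0.060 for Pyy and −0.006 to 0.155 for Sox17. For the interaction, the median shift gave −0.188 for Cldn6, −0.738 for Hnf4a, −0.383 for Nkx2-1 and −0.319 for Trh. For Nkx2-1 it was −0.235 with normexp, −1.063 with quantile normalization and −0.124 without the pair. Without 1 embryo it ran from −0.146 to 0.167 for Hnf4a and from −0.014 to 0.746 for Nkx2-1. The signal of Nkx2-1, close to background, limits what the array can resolve for this gene.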
